A study of Melospiza melodia with 33 samples.

Results

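Transcripts of 10 circadian clock genes were followed in the blood of wild song sparrows, Melospiza melodia. They are CLOCK, NPAS2, PER2, PER3, CRY1, CRY2, NR1D2, BHLHE40, NFIL3 and TEF, taken as a list of named genes. All 10 were present among the 21141 gene rows, and 9 of them had enough counts to be tested; NPAS2 did not. Blood was drawn from free-living adult males at Linesville, Pennsylvania, whose territories were intruded upon by song playback. The 33 libraries comprise 12 taken after foreign song (stimuli 1, 4 and 5, recorded at Millbrook, New York), 11 taken after local song (stimuli 2, 3 and 6, recorded at Linesville) and 10 from baseline birds given no trial. A total of 25 birds contributed, 15 with a first-trial library and 10 at baseline. Of the 15, 8 also had a second-trial library after the other song, with local song first in 4 and foreign song first in 4. The clock hour of capture was not analysed here, because the labels used do not carry it, so its part in any result below was not tested.

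The circadian clock is a transcriptional loop that runs in most vertebrate cells. In the scheme worked out mainly in mammals and shared by birds, CLOCK or its paralogue NPAS2 pairs with BMAL1 on E-box elements and switches on the PER and CRY genes, whose proteins return to the nucleus and repress that pair. NR1D2 (REV-ERB beta) represses BMAL1, BHLHE40 (DEC1) competes at E-boxes, and NFIL3 and TEF act in opposition, as repressor and activator, on the D-box elements of output genes. Because activators and repressors peak at different hours, their levels relative to each other depend on when a tissue is sampled.

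The libraries held 64.7 to 103.7 M counts each, and the 10 most abundant genes held 21.3% to 49.6% of them. Bird red cells are nucleated, and the 6 erythroid markers with a row (of 10 listed, the others being GATA1, KLF1, EPOR and ALAS2) summed to 5646 to 14410 CPM, the count scaled to a library's effective size, in the libraries. In a bulk sample, fewer cells of a type and less RNA per cell cannot be told apart. The p-values of the baseline comparisons and of relations over birds measure spread between birds. Those of the tests within paired birds measure the spread left between libraries of the same bird after trial and song. One pair of libraries stood apart. In 7 of the 8 birds with a pair, the correlation between the bird's own 2 libraries was above its highest with another bird. These own-pair correlations of group-centred log2 CPM across genes were 0.325 to 0.629. The libraries labelled 8439 had −0.0499. That both came from 1 bird rests on the labels, and an error in a label and a difference between samples of 1 bird cannot be told apart here. The counts over 8 birds below take the labels as given. The second library labelled 8439 carried the highest thrombocyte marker sum (887.9 CPM), T cell marker sum (65.87 CPM) and normalization factor (1.81) of the 33. It also had the highest mean log2 CPM of white cell and thrombocyte markers (3.28) and the lowest of erythroid markers (9.38). The main results that these libraries move are given with and without them.

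Among the activators, CLOCK was measured with 4398 to 17367 counts in every library. Its level after foreign song was 95.2 to 209.3 CPM with a median of 115.2 (n = 12). After local song it was 81.6 to 149.6 CPM with a median of 125.7 (n = 11), and at baseline it was 73.9 to 132.3 CPM with a median of 106.8 (n = 10). The 3 groups overlapped over most of their range, and the highest value came from the second library of bird 8426. NPAS2, the CLOCK paralogue, was barely detected. It had 56 counts in all and none in 24 of the 33 libraries, where a count of 0 allows up to 0.0249 to 0.0557 CPM (3 counts per library, counting error only). Only 2 libraries held more than 3 counts of it, the foreign song library of bird 8428 with 21 and the local song library of bird 8439 with 22, and the gene entered no test.

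The PER and CRY repressors overlapped between all groups. PER2 lay between 82.5 and 174.1 CPM after foreign song (median 104.2), between 55.2 and 139.2 after local song (median 98.3) and between 46.0 and 137.6 at baseline (median 102.7). PER3 lay between 121.9 and 393.7 CPM (median 246.0), between 85.9 and 268.7 (median 198.5) and between 97.2 and 309.4 (median 199.9) in the same order. Both PER genes therefore overlapped between all groups, with their highest values among foreign song libraries of second trials. CRY1 was the least variable clock gene at baseline, where the 10 birds lay between 207.9 and 258.0 CPM (median 241.6, coefficient of variation 6.2%). After foreign song it ran from 195.1 to 349.3 CPM (median 261.1) and after local song from 115.2 to 328.2 CPM (median 223.9), so both song groups reached above and below the baseline range. CRY2 lay between 47.5 and 89.3 CPM after foreign song (median 57.2), between 35.0 and 81.2 after local song (median 53.5) and between 52.1 and 71.6 at baseline (median 59.0). The lowest CRY1 and the lowest CRY2 value of all libraries came from the second library labelled 8439.

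The other repressors differed in how far single birds departed from the rest. NR1D2 lay between 192.3 and 534.2 CPM after foreign song (median 270.8), between 191.4 and 329.5 after local song (median 260.0) and between 149.2 and 440.8 at baseline (median 223.3). BHLHE40 was the most variable of the tested clock genes, with a coefficient of variation of 78.9% over all libraries against 19.1% in TEF at the other end. Its level was 1.56 to 7.16 CPM after foreign song (median 3.19), 1.25 to 8.30 after local song (median 2.77) and 1.60 to 17.3 at baseline (median 3.76), on 99 to 1397 counts. The highest NR1D2 value came from the second library of bird 8426, after foreign song, with baseline bird 8450 next, and the highest BHLHE40 value from baseline bird 8442.

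The output regulators overlapped between groups as well. NFIL3 lay between 158.9 and 380.2 CPM after foreign song (median 253.5), between 124.3 and 375.1 after local song (median 221.1) and between 146.1 and 507.6 at baseline (median 228.6). TEF lay between 225.1 and 352.3 CPM after foreign song (median 253.8), between 144.2 and 305.7 after local song (median 238.8) and between 157.8 and 311.9 at baseline (median 247.1). NFIL3 was highest in baseline bird 8450, the bird in which TEF was lowest among baseline birds. Baseline bird 8448 was lowest of its group in 7 of the 9 tested genes, all except BHLHE40 and TEF, and bird 8450 was highest in 4 of them, PER2, PER3, NR1D2 and NFIL3. Bird 8448 also had the highest mean log2 CPM of 32 white cell and thrombocyte markers at baseline (3.20), and bird 8450 the lowest erythroid marker mean (9.45). The part of these measures in the levels of birds 8448 and 8450 was not tested. Relations of both marker means with the clock genes over birds are given below.

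**Figure D1:**
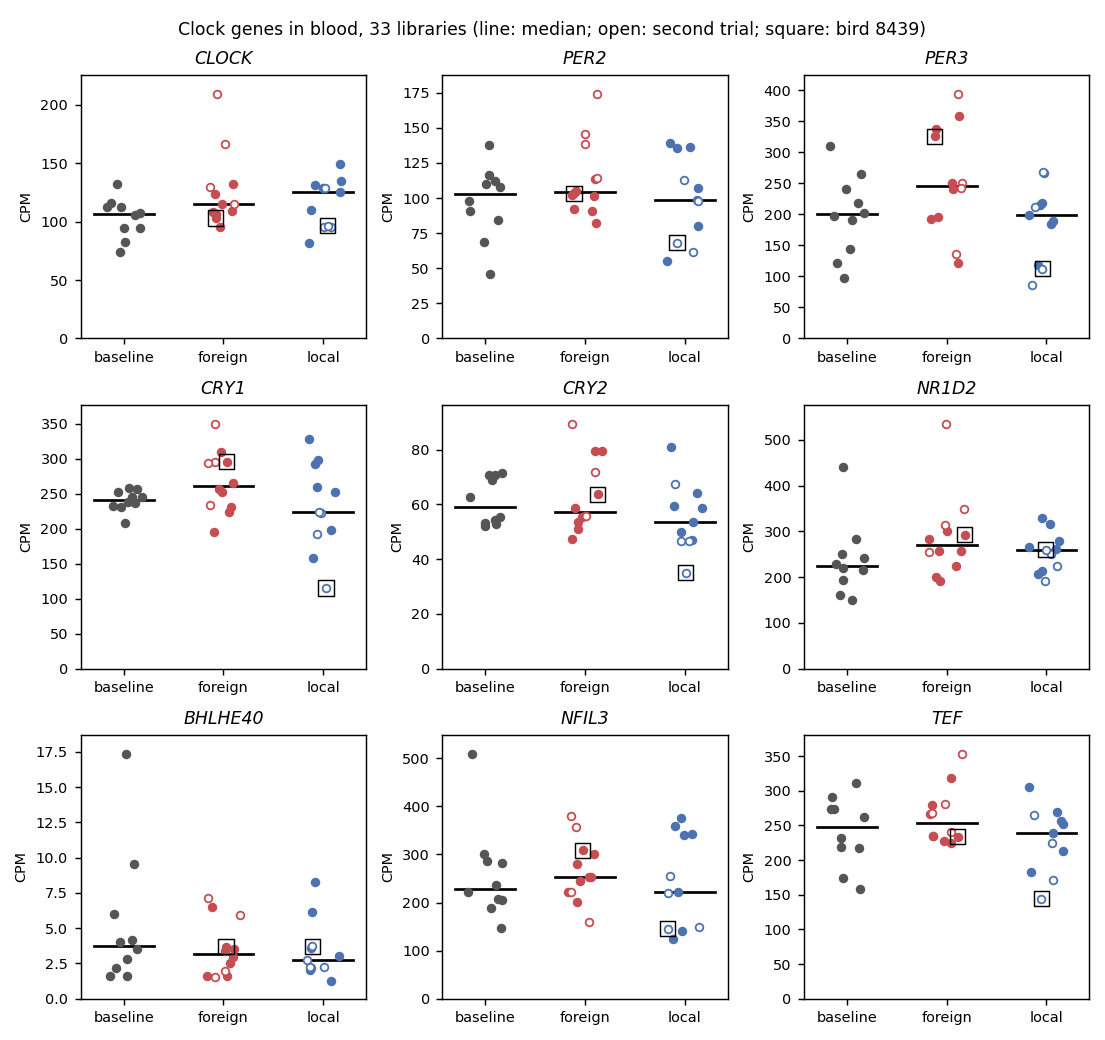
Level of each tested clock gene in CPM (vertical axis, linear from 0) by group, 1 point per library, with the group median as a line, second-trial libraries as open points and the libraries labelled 8439 in squares. Groups overlap for all 9 genes, CRY1 is narrow at baseline (207.9 to 258.0 CPM), and bird 8442 stands alone for BHLHE40 (17.3 CPM).

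The comparison of songs within the 8 birds asked whether an intruder's song origin went with a difference in these transcripts. No clock gene was called between foreign and local song by edgeR's quasi-likelihood test with Benjamini-Hochberg adjustment over all genes. The count was 0 of 9, and 0 of 11629 genes (0%) were called at all, with 486 genes and 0 of the 9 at an unadjusted p under 0.05. DESeq2 called 4 genes and none of the 9. All 9 fitted differences were nevertheless above 0, from 0.11 for CLOCK to 0.37 for BHLHE40 on the log2 scale, with a median of 0.205. Over all genes 49.1% of the fitted differences were above 0, with a median of −0.00603, and the 9 values are not independent of each other.

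CRY1 shows the pattern bird by bird. In birds that heard local song first it was 252.9 then 295.3 CPM in bird 8422, 198.0 then 293.8 in bird 8426, 297.8 then 349.3 in bird 8427 and 328.2 then 234.0 in bird 8430. In birds that heard foreign song first it was 265.6 then 223.1 CPM in bird 8428, 230.8 then 223.9 in bird 8429, 252.8 then 192.1 in bird 8436 and 295.8 then 115.2 in bird 8439. CRY1 was thus higher after foreign song in 7 of 8 birds, with bird 8430 the exception. The fitted difference was 0.32 ± 0.17 (SE, n = 8 birds, 95% interval −0.06 to 0.69), and edgeR's adjusted p was 0.775. Without bird 8439 the fitted difference was 0.17.

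CRY2 was likewise higher after foreign song in 7 of 8 birds, with a difference of 0.21 ± 0.13 (edgeR adjusted p = 0.775). PER2 and PER3 were higher in 6 of 8 birds each, by 0.27 ± 0.15 and 0.33 ± 0.21 (both edgeR adjusted p = 0.775). BHLHE40, NR1D2, NFIL3, TEF and CLOCK were higher in 5 of 8 birds each, with levels scaled within this comparison. NR1D2 was nearly tied in bird 8436. On the displayed scale that bird was slightly higher after foreign song, at 192.3 against 191.4 CPM. All 9 differences were above 0 in each of the 8 fits that left out 1 bird. Without bird 8439 their median was 0.15, and the values of PER3, CRY2, TEF and NFIL3 were 0.15, 0.12, 0.12 and 0.06. With the white cell and thrombocyte marker mean as a covariate, 7 of 9 were above 0, PER3 and NFIL3 were at −0.06 each, and the median was 0.03. In the first trials alone, which compare 8 birds after foreign song with 7 other birds after local song, only 3 of 9 were above 0 and the median was −0.075. That comparison was added after the data were seen.

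**Figure D2:**
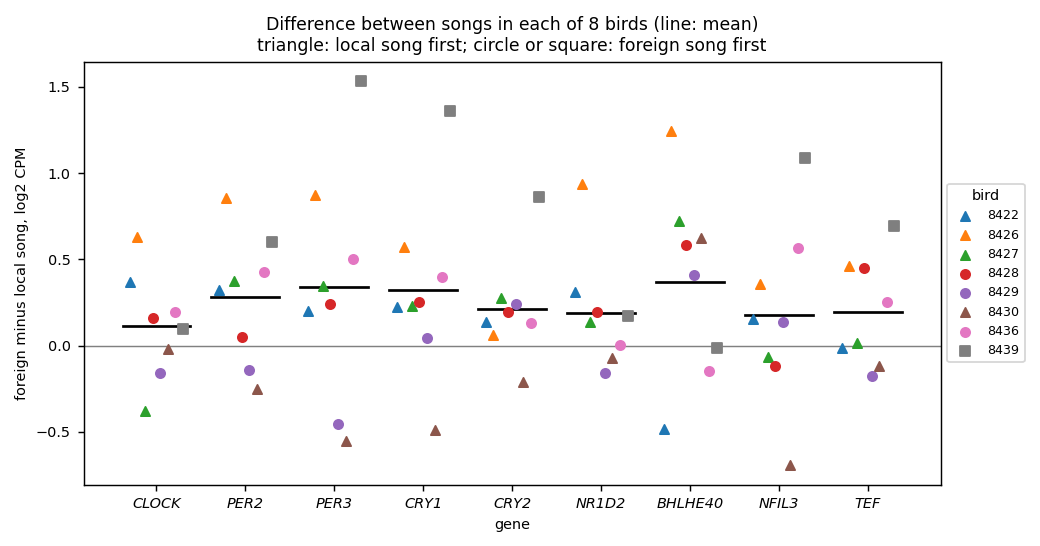
Foreign minus local song difference in log2 CPM (vertical axis) for each tested clock gene in each of 8 birds, with the mean as a line. Means lie above 0 for all 9 genes, single birds lie on both sides of 0 for each gene, and bird 8439 (square) holds the highest value for PER3, CRY1, CRY2, NFIL3 and TEF.

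Second trials were compared with first trials in the same fit. None of the 9 genes was called by edgeR's quasi-likelihood test, beside 0% of the 11629 genes (666 genes and 0 of the 9 at an unadjusted p under 0.05). DESeq2 called 6 genes and none of the 9. The fitted differences were above 0 in 4 of 9, CLOCK, PER2, NR1D2 and BHLHE40, with a median of −0.0999 against 0.0384 over all genes. The sign of that median was not stable, since it was 0.046 without bird 8439 and 0.074 with the marker covariate, each with 5 of 9 above 0. The clock genes of a bird tended to lie on one side of 0 together. In bird 8426 all 9 genes were higher in the second library, by 0.06 for CRY2 to 1.24 for BHLHE40 on the log2 scale. In birds 8428, 8430, 8436 and 8439, 8 of 9 were lower. Birds 8422 and 8427 had 7 of 9 higher, and bird 8429 had 5. The share of all genes that rose or fell in each bird was not set beside these counts. A shift shared with other genes of the bird was therefore not tested here.

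The song groups were each compared with the 10 baseline libraries, which both comparisons share. For foreign song, 0 of 9 clock genes and 0% of 11817 genes were called by edgeR's quasi-likelihood test (842 genes at an unadjusted p under 0.05, CLOCK among them). DESeq2 called 1 gene and none of the 9. CLOCK had a mean of 125.3 ± 32.0 CPM after foreign song and 103.9 ± 16.2 at baseline (SD, n = 12 and 10, scaled within this comparison). Its difference was 0.27 ± 0.13 on the log2 scale (SE, 95% interval 0.003 to 0.54, p = 0.0473 in edgeR's test), with an adjusted p of 0.687 that did not pass. CLOCK had a mean of 111.6 ± 11.8 CPM in the 8 first-trial libraries after foreign song and 155.1 ± 42.0 CPM in the 4 second-trial ones (SD), against 103.3 ± 17.1 at baseline on the scale of all libraries. With first trials only, its difference from baseline was 0.10 (edgeR adjusted p = 0.999). The fitted differences of 8 of 9 genes were above 0, against 42.4% of all genes, with a median of 0.129. With first trials only it was 6 of 9 and a median of 0.057. The exception among all trials was BHLHE40 at −0.59 ± 0.38 (edgeR adjusted p = 0.754), whose baseline group held the 17.3 CPM of bird 8442. Without that library the difference was −0.17, and −0.21 for local song.

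For local song against baseline, 0 of 9 clock genes were called by edgeR's quasi-likelihood test, beside 1 of 11800 genes (0.00847%). Unadjusted p-values under 0.05 were found for 702 genes and 0 of the 9, and DESeq2 called 18 genes and none of the 9. Only CLOCK, PER2 and NR1D2 had fitted differences above 0, 3 of 9 against 49.9% of all genes, with a median of −0.0755. The 9 values lay between −0.63 for BHLHE40 and 0.17 for CLOCK. With first trials only, 6 of 9 were above 0, with a median of 0.051. For foreign song it was likewise 6 of 9, with a median of 0.057. Both counts use the same baseline libraries, so their equality does not show that the songs were alike. Compared directly in first trials, foreign against local song had 3 of 9 above 0. The intervals of these comparisons were wide for the more variable genes. For BHLHE40 the 95% interval reached from −1.45 to 0.18 and for NFIL3 from −0.56 to 0.38, so the tests say little about differences within those limits.

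Beyond the 10 genes, 29 further clock gene symbols were listed and 23 had a row. The symbols ARNTL, ARNTL2, PER1, CRY4, DBP and FBXL21 had no row, though BMAL1 and BMAL2, the current names of ARNTL and ARNTL2, did. None of the 19 or 20 that passed the filter was called for song, trial or baseline by edgeR's quasi-likelihood test. For foreign against local song 7 of 19 fitted differences were above 0, with a median of −0.102. BMAL1, the partner of CLOCK, had only 59 to 405 counts per library. It lay between 1.05 and 4.08 CPM after foreign song (median 1.93), between 0.924 and 3.90 after local song (median 1.91) and between 1.38 and 3.24 at baseline (median 2.34), with overlap between all groups. The second library was higher in 7 of 8 birds, with a log2 difference of 0.44 ± 0.23 (SE, edgeR adjusted p = 0.633).

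The 2 libraries of a bird were then used to ask whether a level differed between birds by more than it differed within them. None of the 9 (0 of 9) passed by edgeR's quasi-likelihood F-test, against 14.4% of the 11629 genes. Unadjusted p-values under 0.05 were found for NFIL3, BHLHE40 and NR1D2, 3 of 9, against 33.4% of all genes. NFIL3 came nearest. Bird 8426 had 124.3 and 158.9 CPM in its 2 libraries and bird 8422 had 341.9 and 380.2, whereas bird 8439 had 308.9 and 145.3. Its adjusted p was 0.0851, and that of BHLHE40 was 0.103. At the other end, CRY1 had 115.2 to 349.3 CPM over these libraries and an edgeR adjusted p of 0.641. Its r between first and second libraries was −0.248 (exact permutation p = 0.554, n = 8), and 0.002 without bird 8439 (exact permutation p = 0.998, n = 7). CRY1 had the lowest such r of the 9 genes. Over the 9 its median was 0.548, against 0.398 over 12363 genes, and the highest was 0.615 for CLOCK. None passed Benjamini-Hochberg adjustment over 10 relations, BMAL1 included (lowest adjusted exact permutation p = 0.309).

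The count of 0 of 9 depended on bird 8439, and also on the tool and the covariate. Without that bird, 6 of 9 clock genes differed between the other 7 by the same edgeR test. They were NFIL3 (adjusted p = 0.00244), NR1D2 (0.0137), PER3 (0.0141), BHLHE40 (0.019), CRY2 (0.02) and PER2 (0.0332). The share over all genes was also higher without that bird, 44.7% of 11632 genes. Whether the clock genes exceeded the share over all genes was not tested in any setting. Other settings lay between. DESeq2 called 3 of 9 (NFIL3, NR1D2 and BHLHE40) beside 37.4% of genes, the marker covariate gave the same 3 beside 36.2%, and leaving out the count filter gave NFIL3 alone (adjusted p = 0.0324 by edgeR) beside 14.3% of 17868 genes. Among the other clock genes, 2 of 19 differed between birds in the fit of all 8, beside 14.4% of the 11629 genes. The 2 clock genes were BTRC (edgeR adjusted p = 0.00695), part of the ubiquitin ligase that marks PER proteins, and CIPC (0.0453), an inhibitor of the CLOCK complex.

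**Figure D3:**
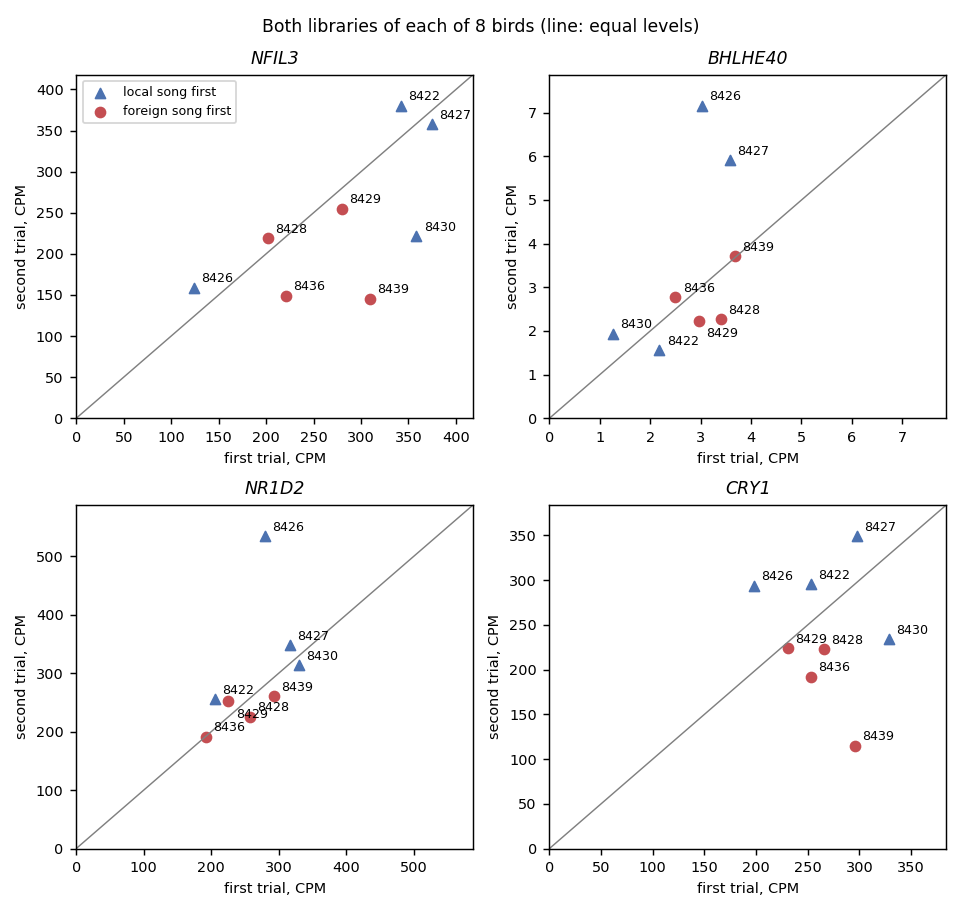
Level in the second-trial library against the first-trial library, both in CPM on linear axes from 0, for NFIL3, BHLHE40, NR1D2 and CRY1, 1 point per bird (n = 8), with the line of equal levels. NFIL3 keeps bird 8426 low (124.3 and 158.9 CPM) and bird 8422 high (341.9 and 380.2), bird 8426 leaves the line for NR1D2 (278.7 and 534.2), and bird 8439 leaves it for CRY1 (295.8 and 115.2).

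Relations between clock genes were examined over the 25 birds, with 1 library each (10 baseline and 15 first-trial). The family held 45 pairs, 36 among the 9 genes and 9 with BMAL1, each tested two-sided on log2 CPM with 100000 resamples and adjusted by Benjamini-Hochberg over the 45. A total of 6 pairs passed, all positive. Of the 36 pairs, 26 had r above 0 with a median of 0.325. Over all pairs of the 12363 genes tested, 49.7% had r above 0 and the median was −0.00207. An r above 0.7 was found for 1 of the 36 (2.78%), beside 0.299% of all gene pairs. Those gene pairs were not matched for level, and how many of them would pass was not computed.

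PER2 and NFIL3 were the most closely related pair. Their r was 0.80 (permutation p = 1e-05, the smallest that 100000 resamples can give, adjusted p = 0.00045, n = 25) and Spearman's rho was 0.76 (permutation p = 2e-05). With birds 8448 and 8432 left out, the 2 farthest from the PER2 median, r was 0.74. Within baseline birds r was 0.83 (permutation p = 0.00499, adjusted p = 0.112, n = 10) and within first-trial birds 0.79 (permutation p = 0.00042, adjusted p = 0.00945, n = 15). Among the birds low in both genes were baseline bird 8448, with 46.0 CPM of PER2 and 146.1 CPM of NFIL3, and first-trial birds 8432 and 8426. Of all named genes that passed the filter, NFIL3 was the most like PER2, and PER2 the most like NFIL3.

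CRY1 joined this pair. CRY1 and NFIL3 had r = 0.65 (permutation p = 0.00059, rho = 0.59 with p = 0.00216), and PER2 and CRY1 had r = 0.64 (permutation p = 0.00085, rho = 0.51 with p = 0.00982), both with adjusted p = 0.00956 (n = 25). With birds 8432 and 8430 left out, the first r was 0.54, and with 8448 and 8432 left out the second was 0.45. Both passed in first-trial birds alone (r = 0.74 and 0.75, permutation p = 0.00231 and 0.00145, adjusted p = 0.026 and 0.0218, n = 15). At baseline the r values were 0.64 and 0.74, with permutation p = 0.0541 and 0.0239 and adjusted p = 0.304 and 0.268 (n = 10).

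The other pairs linked CLOCK and PER3 to NR1D2. CLOCK and NR1D2 had r = 0.63 (permutation p = 0.00066, adjusted p = 0.00956, rho = 0.60 with p = 0.00153, n = 25), and r was 0.49 without birds 8448 and 8427. PER3 and NR1D2 had r = 0.57 (permutation p = 0.0031, adjusted p = 0.0279, rho = 0.43 with p = 0.0349), and r was 0.49 without birds 8448 and 8433. PER2 and PER3 had r = 0.54 (permutation p = 0.00512, adjusted p = 0.0384, rho = 0.34 with p = 0.0983), and r was 0.19 without birds 8448 and 8432, so this relation rests on those birds. Leaving out baseline bird 8448 alone, which was low in most clock genes, left 3 pairs past the threshold, PER2 with NFIL3 (r = 0.79), CRY1 with NFIL3 (0.63) and PER2 with CRY1 (0.64). That setting was added after the data were seen. By Spearman's rho, with adjustment over the 45, PER2 with CRY1 (adjusted permutation p = 0.0884), PER3 with NR1D2 (0.224) and PER2 with PER3 (0.277) did not pass. On residuals of the white cell and thrombocyte marker mean, PER3 with NR1D2 (r = 0.52, adjusted permutation p = 0.0707) and PER2 with PER3 (r = 0.47, adjusted permutation p = 0.105) did not pass.

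**Figure D4:**
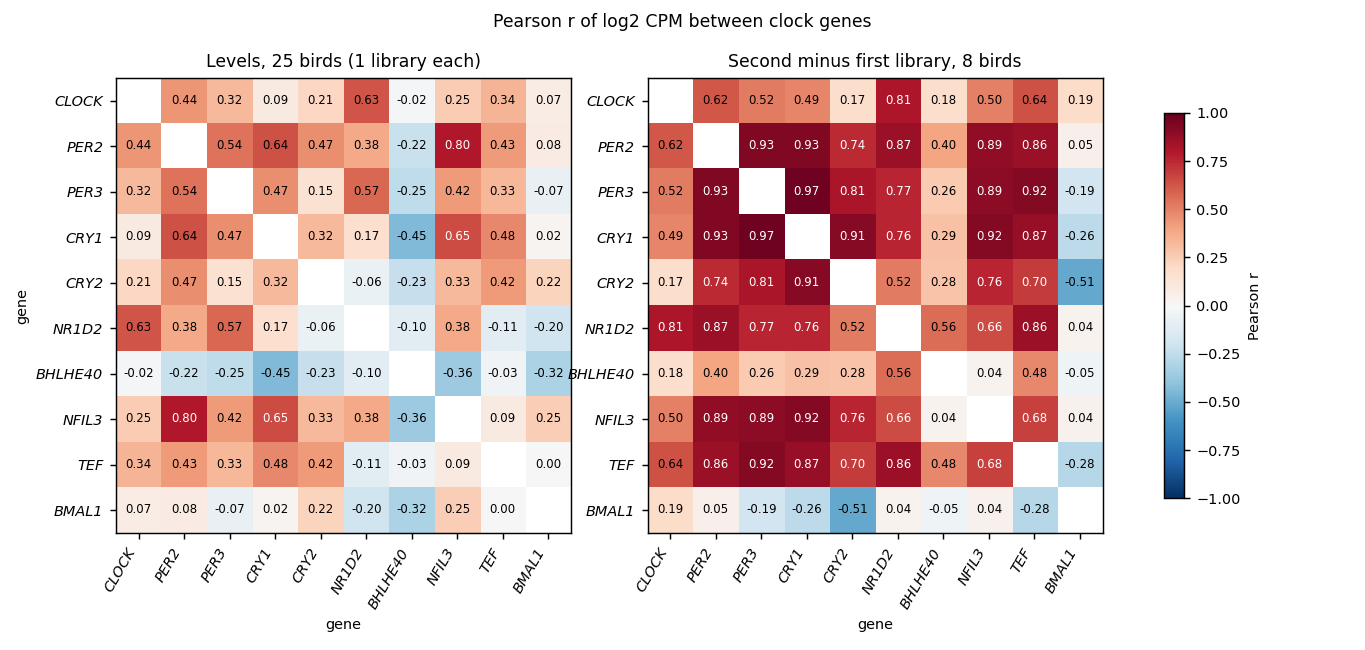
Pearson r of log2 CPM for each pair of clock genes and BMAL1, on a colour scale from −1 to 1, for levels over 25 birds (left) and for the second minus first library of 8 birds (right). On the left PER2, CRY1 and NFIL3 form a block of r from 0.64 to 0.80 and the row of BHLHE40 is below 0, whereas on the right all 36 pairs among the 9 genes are above 0.

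BHLHE40 differed from the rest in the sign of r over the 25 birds, but not in every set of libraries. All 8 of its pairs with the other tested genes had r below 0 over the 25 birds, from −0.45 with CRY1 to −0.02 with CLOCK, and none passed. At baseline 4 of the 8 were below 0, and in first-trial birds 7 were. For within-bird changes all 8 were above 0, from 0.04 to 0.56. The r of BHLHE40 with TEF had opposite signs in the 2 kinds of bird, of which only that of first-trial birds passed adjustment. In first-trial birds r was −0.93 (permutation p = 1e-05, the smallest that 100000 resamples can give, adjusted p = 0.00045, n = 15), with rho = −0.93 (permutation p = 1e-05), and r was −0.88 without birds 8432 and 8430. At baseline r was 0.64 (permutation p = 0.0442, adjusted p = 0.304, n = 10), with rho = 0.73 (permutation p = 0.0198), and r was 0.42 without birds 8442 and 8444. The pooled r was −0.03. First-trial bird 8432 had the highest BHLHE40 (8.30 CPM) and the lowest TEF (182.7 CPM) of its kind, while at baseline the birds highest in BHLHE40, 8442 and 8444, were also the highest in TEF. The difference between the relations was not tested. The r of this pair was not computed over the 8 second-trial libraries, which come from birds among the 15. In those libraries bird 8426 was highest in both genes (7.16 and 352.3 CPM). The one labelled 8439 was lowest in TEF (144.2 CPM), with 3.71 CPM of BHLHE40. For within-bird changes the pair had r = 0.48 (exact permutation p = 0.23, adjusted p = 0.345, n = 8).

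PER3 and NR1D2 were a second pair whose r was not alike in both kinds of bird. At baseline r was 0.90 (permutation p = 0.00019, adjusted p = 0.00855, rho = 0.90 with p = 0.00076, n = 10), the only pair past the threshold there, and r was 0.84 without birds 8448 and 8435. The baseline birds were ordered from bird 8448, at 97.2 CPM of PER3 and 149.2 CPM of NR1D2, to bird 8450, at 309.4 and 440.8. In first-trial birds r was 0.13 (permutation p = 0.641, adjusted p = 0.780, n = 15). The difference between these relations was not tested either.

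**Figure D5:**
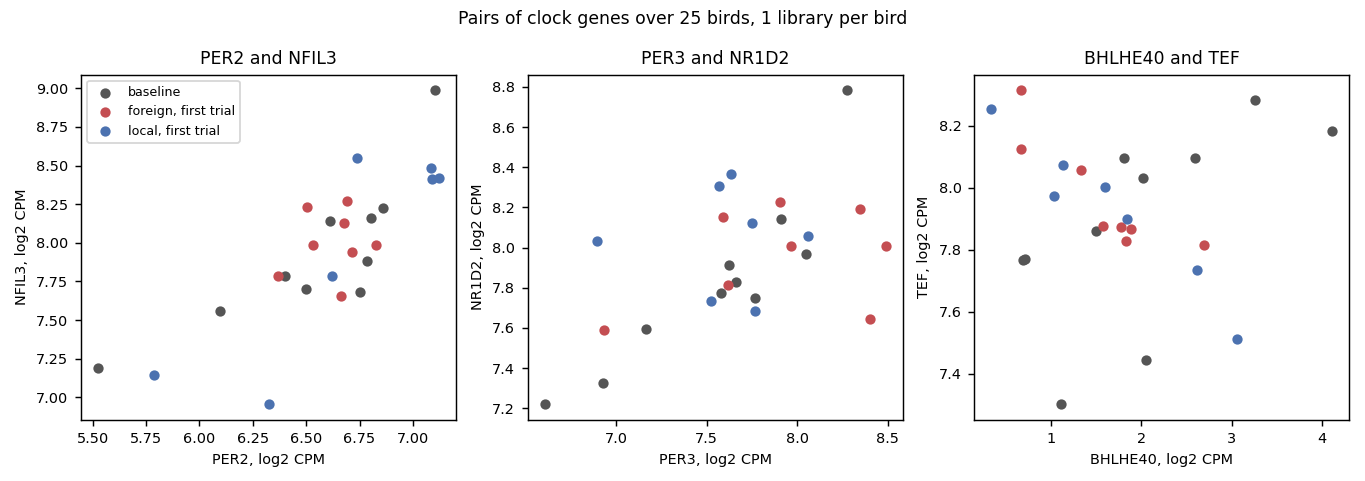
Log2 CPM of PER2 with NFIL3, PER3 with NR1D2 and BHLHE40 with TEF over 25 birds, 1 point per bird, coloured by baseline, foreign song first trial and local song first trial. PER2 and NFIL3 rise together with scatter over the 25 birds (r = 0.80). PER3 and NR1D2 follow each other at baseline (r = 0.90), and BHLHE40 and TEF slope down in first-trial birds (r = −0.93) but up at baseline (r = 0.64).

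Changes between the 2 libraries of a bird ran in the same direction for most clock genes. Over the 8 birds, all 36 pairs among the 9 genes had r above 0, with a median of 0.72, and 18 of the 36 (50%) had r above 0.7, compared with 9.11% of all gene pairs. Those gene pairs were not matched for level. Each of the 9 genes had r above 0.7 with 1.37% (BHLHE40) to 15.3% (CRY2) of all other genes. By exact permutation over the 40320 orders of 8 birds, 13 pairs passed Benjamini-Hochberg adjustment over the 45. The share of all gene pairs that would pass was not computed. PER3 with CRY1 was the highest, with r = 0.97 (exact permutation p = 0.000372, adjusted p = 0.0167, rho = 0.93 with exact p = 0.00223), and r was 0.88 without birds 8439 and 8426. In the libraries labelled 8439, PER3 was 326.0 then 112.5 CPM and CRY1 295.8 then 115.2 CPM, while both were higher in the second library of bird 8426, at 393.7 and 293.8 CPM after 215.1 and 198.0 CPM. PER2 and CRY1 each took part in 5 of the 13 pairs, and BHLHE40 in none.

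Without bird 8439, 35 of the 36 pairs had r above 0, 16 had r above 0.7, and 4 passed by exact permutation over the 5040 orders of 7 birds. These were PER2 with CRY1 (r = 0.97, exact permutation p = 0.000595, adjusted p = 0.0268), PER2 with PER3 (0.94, 0.00278 and 0.0469), PER3 with CRY1 (0.93, 0.00417 and 0.0469) and NR1D2 with TEF (0.90, 0.00417 and 0.0469). The share of all gene pairs with r above 0.7 was not computed for these 7 birds, nor the share that would pass. The counts of 16 and 4 therefore have no share over all genes beside them. Some single relations depended on other birds. CLOCK with NR1D2 had r = 0.81 (exact permutation p = 0.014, adjusted p = 0.0485, n = 8), and r was 0.05 without birds 8426 and 8422. These changes mix song and trial order, and in birds given stimuli 3 and 4 or 5 and 6, song, order and stimulus cannot be told apart.

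BMAL1, the partner of CLOCK, set against the 9 genes, gave no pair past the threshold. Over the 25 birds its r with the 9 genes ran from −0.32 with BHLHE40 to 0.25 with NFIL3. At baseline all 9 were below 0, from −0.61 with CRY2 (permutation p = 0.0649, adjusted p = 0.312, n = 10) to −0.30 with NR1D2. In first-trial birds 7 of 9 were above 0, up to 0.56 with NFIL3 (permutation p = 0.0284, adjusted p = 0.116, n = 15). For within-bird changes 4 of 9 were above 0, and without bird 8439 it was 8 of 9. The difference between baseline and first-trial birds was not tested, and BMAL1 counts were low.

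The clock gene levels were also set against 5 measures of the libraries over the same 25 birds, which gave 50 relations with BMAL1 included. The measures were the white cell and thrombocyte marker mean, the erythroid marker mean, the share of the 10 most abundant genes, the total counts and the normalization factor. None passed adjustment over the 50 (lowest adjusted permutation p = 0.308), and 4 had an unadjusted permutation p under 0.05. The highest was TEF with the erythroid marker mean (r = 0.48, permutation p = 0.0173, rho = 0.25 with p = 0.23, n = 25), where r was 0.19 without the 2 farthest birds. BMAL1 had r = 0.44 with the white cell and thrombocyte marker mean (permutation p = 0.0264, rho = 0.44 with p = 0.0269), and r was 0.42 without the 2 farthest birds. PER3 had r = −0.42 with the share of the 10 most abundant genes (permutation p = 0.0381, rho = −0.48 with p = 0.0171) and −0.36 without the 2 farthest birds.

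Outside the clock, the genes with the most similar pattern were named by Pearson r over the 25 birds, among genes with a symbol that passed the filter. The r in the 8 second-trial libraries is given beside it as a description. Those libraries come from birds already among the 25, so they are not an independent check. CLOCK was most like SNX13, a sorting nexin (0.87, and 0.87 in second trials), NIPBL, which loads cohesin onto DNA (0.78 and 0.87), and CAMK2G, a calcium-dependent kinase (0.77 and 0.54). CRY1 was most like ERRFI1, an inhibitor of growth factor receptors (0.88 and 0.82), RNF146, a ubiquitin ligase (0.86 and 0.86), and KICS2 (0.81 and 0.94). TEF was most like TMEM69 (0.84 and 0.59), SLC39A9, a zinc transporter (0.84 and 0.78), and LARP4, an RNA-binding protein (0.82 and 0.94).

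After NFIL3, PER2 was most like RGPD4 (0.80, and 0.88 in second trials) and LONRF3 (0.77 and 0.85). NFIL3 after PER2 was most like GOPC (0.72 and 0.10) and REV1, a DNA polymerase for damaged templates (0.71 and 0.42). PER3 was most like TANGO6 (0.79 and 0.02), SKIC3 (0.70 and 0.78) and SOS1, an activator of RAS (0.69 and 0.88). For CRY2 they were ECPAS (0.67 and 0.68), LRIG2 (0.65 and 0.86) and CNKSR3 (0.65 and 0.68). The partners of NR1D2 were ARID4A (0.74 and 0.16), ANKRD12 (0.71 and 0.24) and MAPK13, a p38-type kinase (0.71 and 0.21). Those of BHLHE40 were MIDN (0.75 and 0.10), GCC2 (0.71 and 0.39) and PLOD2, a collagen-modifying enzyme (0.70 and 0.56).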

How the data were processed

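Per the labels' protocols, RNA was purified from whole blood, DNase-treated, enriched for poly(A) and sequenced in pairs. The submitters' processing notes name fastp and STAR. For counter, strand setting and genome build, nothing is stated in the sources used here. No coordinates or sequences are therefore printed, and reads of antisense or overlapping genes may be mixed. The authors deposited raw counts, whole numbers whose totals differ between libraries, in 33 files with 1 column each. All libraries carry 1 batch label. The foreign song library of bird 8425 and the baseline library of bird 8446 are listed with 2 lanes, the others with 3. Counts were fitted in R 4.3.3 with edgeR 4.0.16: filterByExpr (minimum count 10, total 15), TMM, robust quasi-likelihood test, Benjamini-Hochberg over all genes, threshold 0.05. Each SE was derived from the fold change and its F statistic. DESeq2 1.42.0 was the alternative tool. Displayed CPM use TMM scaling over all 33 libraries, and log2 CPM a prior count of 1. Relations were computed with numpy 2.4.6.

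Foreign and local song were compared in 16 libraries of 8 birds with bird and trial as terms, and each song was set against baseline using only the libraries of that pair. The bird numbers in the labels pair libraries of the same animal. Own pairs correlated at a mean r of 0.434 across genes, with 8439 the exception. The fits were tested on simulated data, but whether they could find differences as small as those seen here is not claimed. The 10 genes and the other lists were chosen with earlier results of these data known. All 10 are named, other clock genes by counts with values for BMAL1 and any past the threshold, and for each tested gene the 3 most similar named genes. Any other gene with values was chosen after they were seen.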

Additional observations from a re-analysis of the deposited data

Results flagged for a closer look

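For each of the 9 tested clock genes, the 10 baseline levels and the 8 within-bird changes were examined for 1 value far from the others by Dixon's test, 18 groups in all. Chance gives such a value in about 1 in 20 groups of normally spread values. These groups are not independent, since the genes are correlated, so the count found cannot be set against that rate. Among the 18 groups 6 were found, 4 of them among baseline levels. NR1D2 and NFIL3 each had baseline bird 8450 far above the rest, at 440.77 and 507.64 CPM. BHLHE40 had baseline bird 8442 far above the rest, at 17.31 CPM. CRY1 had baseline bird 8448 below a tight group, at 207.94 CPM, with a gap over range of 0.467 that barely passed the limit of 0.466.

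Among the changes from first to second library, NR1D2 was far above the other birds in bird 8426, by 0.93833 on the log2 scale. CRY2 was far below them in bird 8439, at −0.86177. The second library of bird 8439 also had the highest thrombocyte and T cell marker sums of all libraries (887.9 and 65.87 CPM) and the lowest erythroid marker mean (9.38). The part of these in that value was not tested.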

How the results depend on the processing

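Calls of 0 for song, trial and both baseline comparisons held in every alternative run, each bird or library left out included. Without the replicate block, the song differences were above 0 in 9 of 9 genes (median 0.204), with no call. Clock genes called for differences between birds numbered 3 of 9 by DESeq2 (beside 37.4% of all genes) and 3 with the marker covariate (36.2%). They numbered 1 with no filter (14.3%) and 0 to 6 leaving out 1 bird. The 6 came without bird 8439, where 44.7% of all genes were called. Correlated pairs numbered 3 by Spearman's rho, 1 at baseline alone and 3 without baseline bird 8448, and 5 without birds 8448 and 8450, against 6. Those 5 were not all among the 6. Without both birds, PER3 with NR1D2 (r = 0.395, adjusted permutation p = 0.233) and PER2 with PER3 (r = 0.324, adjusted permutation p = 0.352) did not pass. The baseline r of BHLHE40 with TEF was 0.642. The causes were not tested.

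Fitted differences that changed sign were all uncalled. For foreign against local song, they were in first trials alone −0.229 (BHLHE40), −0.142 (CLOCK), −0.00713 (CRY1), −0.075 (NFIL3), −0.0886 (NR1D2) and −0.119 (PER2), and with the marker covariate −0.0606 (NFIL3) and −0.0605 (PER3). For trial, PER3 was 0.0741 with the covariate. For foreign song against baseline, first trials gave −0.0152 (CRY2) and −0.0213 (NFIL3), and the covariate −0.0437 (CRY2) and −0.0296 (NFIL3). NFIL3 was −0.0253 without the 2-lane libraries and −0.00973 without 8439. For local song against baseline, first trials gave 0.0688 (CRY1), 0.0512 (NFIL3) and 0.0103 (TEF). CRY1 was 0.00397 without 8439, and PER2 −0.00433 with no filter and −0.0189 without the 2-lane libraries.

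Leaving out 1 bird or library, trial differences ran from −0.0294 to 0.139 (CLOCK), −0.0316 to 0.15 (PER2) and −0.257 to 0.0646 (PER3). Foreign song against baseline ran from −0.0247 to 0.0653 (CRY2) and −0.0542 to 0.194 (NFIL3). Local song against baseline ran from −0.122 to 0.00397 (CRY1), −0.172 to 0.0808 (NFIL3), −0.0549 to 0.104 (PER2) and −0.163 to 0.0191 (PER3).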

Other observations

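Some values of other clock genes belong to no call above. In the second trial GSK3B, a kinase that acts on several clock proteins, was higher in 8 of 8 birds (log2 difference 0.35 ± 0.14, SE, edgeR adjusted p = 0.633). After foreign song within birds HLF, a relative of TEF, was lower in 6 of 8 birds at very low counts, with a difference of −0.90 ± 0.38 (edgeR adjusted p = 0.775), and CSNK1D, a kinase of PER proteins, was higher in 6 of 8 birds (0.30 ± 0.13, edgeR adjusted p = 0.775). RORA, an activator of BMAL1, was 1.36 ± 0.53 CPM after foreign song and 2.09 ± 0.97 CPM at baseline (SD, n = 12 and 10, edgeR adjusted p = 0.687). None passed the threshold. These genes were chosen after their values were seen.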
